A study of Homo sapiens with 15 samples.

Results

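Mitochondrial ribosomal protein genes were examined in PSN-1, an established human line of pancreatic ductal adenocarcinoma cells. The members are all gene symbols of the count tables made of MRPL or MRPS, a number and at most 1 further letter, whatever their values: 77 of 26485 symbols, 48 named for the large subunit (MRPL) and 29 for the small subunit (MRPS). All 77 passed the filter on low counts in every fit. The study asked how transcription changes when MondoA is inhibited. MondoA (gene symbol MLXIP) is a transcription factor that binds DNA with its partner MLX at E-boxes and belongs to the wider MYC network. In the first experiment, PSN-1 cells grown in RPMI with 10% serum were transfected for 72 hours with a control siRNA (siControl), an siRNA against MondoA (siMondoA) or one against MLX (siMLX). In the second, the same line received the vehicle DMSO or SBI-477, given in the labels as a MondoA inhibitor, for the same time. Each of the 5 groups has 3 libraries, 15 in all. All groups share the line, which is a single tumour's cells, and the labels state no dose for SBI-477. Nothing in the labels says whether replicates are separate cultures, so p-values reflect library-to-library spread only, and that spread may be technical.

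The mitochondrial ribosome sits in the mitochondrial matrix and makes the few respiratory chain proteins that are encoded in mitochondrial DNA. Its RNAs come from the mitochondrial genome, but all of its proteins are encoded in the nucleus, made on cytosolic ribosomes and imported. Some of these proteins have counterparts in the bacterial ribosome, others exist only in mitochondria, and the small subunit reads the message while the large subunit joins amino acids. In cancer cells these genes are usually expressed together with other growth genes and are often listed among MYC-regulated programs.

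Names and structure do not match in 3 cases. MRPS18A and MRPS30 carry small subunit symbols but lie in the large subunit in structures of the ribosome, and MRPS36 is a component of the ketoglutarate dehydrogenase complex. By structure, 50 members belong to the large and 26 to the small subunit, and 46 have a bacterial counterpart while 30 are found only in mitochondria. The members are spread over 21 chromosomes, and 17 of them have a protein-coding neighbour that starts within 1000 bases on the opposite strand. MRPL46 and MRPS11 form such a pair themselves, with 34 bases between their starts on chromosome 15. Named pseudogenes exist for 34 members, so reads of 25 bases may be placed with less certainty there.

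The promoter sequences of 4 members are shown because they belong to members whose levels moved below: MRPS16 with the steepest fall after siMondoA, MRPL45 and MRPL20, which also fell and hold a searched motif, and MRPL50, which rose after both siRNAs. They are given 5′ to 3′ on the gene's own strand from RefSeq (GRCh38.p14), within the 250 bases before the RefSeq start and, except for MRPL45, outside the exons of protein-coding genes in GENCODE v29. For MRPL45, where GENCODE places the first exon at the motif, only 30 bases around it are printed. Capitals mark CACGTG, the E-box, in MRPL45 and CCGGAAG, the core bound by ETS factors, in MRPL20.
MRPS16, chr10:73252694-73252894, minus strand: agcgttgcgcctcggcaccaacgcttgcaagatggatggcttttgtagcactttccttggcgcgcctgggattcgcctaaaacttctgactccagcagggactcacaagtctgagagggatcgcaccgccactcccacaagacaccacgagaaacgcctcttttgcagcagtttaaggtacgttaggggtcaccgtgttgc
MRPL45, chr17:38297023-38297052, plus strand: cactcccgcgagCACGTGcgcgtcctcgct
MRPL20, chr1:1407314-1407543, minus strand: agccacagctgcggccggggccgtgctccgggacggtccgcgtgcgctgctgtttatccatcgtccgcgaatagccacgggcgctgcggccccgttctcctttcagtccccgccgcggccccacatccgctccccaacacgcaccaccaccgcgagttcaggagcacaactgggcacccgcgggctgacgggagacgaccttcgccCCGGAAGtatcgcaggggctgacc
MRPL50, chr9:101398619-101398868, minus strand: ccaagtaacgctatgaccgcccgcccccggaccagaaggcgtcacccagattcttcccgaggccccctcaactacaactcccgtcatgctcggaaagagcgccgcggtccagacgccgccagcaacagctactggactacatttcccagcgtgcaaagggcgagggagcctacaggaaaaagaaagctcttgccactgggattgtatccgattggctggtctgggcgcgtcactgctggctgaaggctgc

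The E-box of MRPL45 lies 133 bases before its RefSeq start, and MRPL20 holds the ETS core at 44 and again at 21 bases before its start. Promoters were found for 68 of the 77 members, and 3 motifs were searched on both strands: the E-box (CACGTG), the core bound by ETS factors (CCGGAAG) and the palindrome bound by the factor NRF1. Matches of the first 2 cannot overlap each other, while the NRF1 palindrome can share an end base with either. The ETS core was present in 22 of the 68 promoters (32.4%), against 8.82% of all 27305 promoters, 11.2% of those of genes in the count tables and 28.6% of those of cytosolic ribosomal protein genes. The E-box was present in 6 of 68 (8.82%), against 6.49% of all promoters, 7.61% of those of genes in the count tables and 5.71% of those of cytosolic ribosomal protein genes. Its holders were MRPL22, MRPL36, MRPL37, MRPL45, MRPL49 and MRPS18C. The NRF1 palindrome was found in 1 member, MRPL17 (1.47%, against 1.13% of all promoters). A match describes letters only.

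Levels are given as CPM, the read count of a gene divided by its library's size after TMM scaling, which sets the libraries of an experiment on a common scale. Per kilobase of exon, the siControl levels of members spanned from 2.43 to 117 CPM per kb with a median of 24.2, and the medians were 25.5 for MRPL and 23.2 for MRPS. The highest were MRPS35 at 117 ± 8.14 CPM per kb (SD, n = 3), MRPS34 at 103 ± 0.798, and MRPS26 at 96.4 ± 7.36. MRPL12, the stalk protein of the large subunit, lay between MRPS34 and MRPS26 with an SD of 5.91, and these 3 did not differ beyond their spread. The lowest were MRPL23 at 2.43 ± 0.284 CPM per kb, MRPS18C at 4.58 ± 0.443 and MRPL46 at 4.69 ± 0.158. These lengths join all annotated exons of a gene, so a long minor transcript lowers the value.

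Library totals ran from 11227343 to 14731691 counts in the siRNA experiment and from 23315440 to 30480362 in the drug experiment. The members' share of counts ran from 0.441% to 0.566% with siMondoA, 0.513% to 0.567% with siMLX, 0.537% to 0.541% with siControl, 0.684% to 0.726% with SBI-477 and 0.630% to 0.836% with DMSO. The targeted genes matched the siRNA labels. MLXIP had 22.6, 23.4 and 15.7 CPM in siMondoA against 83.6, 65.8 and 88.6 in siControl, and MLX had 11.9, 7.15 and 7.69 CPM in siMLX against 53.4, 58.8 and 53.0. In the drug experiment TXNIP, a direct MondoA target, went against 2 labels: the libraries labelled SBI-477 had 74.6, 121 and 41.5 CPM and those labelled DMSO 145, 39.2 and 204, so each replicate 2 stood on the other group's side. Markers of pancreatic epithelium such as KRT8 and KRT18 were expressed, and the sum over 6 of them ranged from 1161 to 1745 CPM for siMondoA, 1702 to 2205 for siMLX, 1633 to 2483 for siControl, 1097 to 1896 for SBI-477 and 1076 to 1631 for DMSO. The 12 markers of other cell types summed to 579 to 859 CPM for siMondoA, 558 to 748 for siMLX, 515 to 724 for siControl, 146 to 224 for SBI-477 and 109.6 to 297 for DMSO. Of these, COL3A1 had 332 to 404 CPM in siControl and CD3E and INS were at 0, while PTPRC reached at most 0.152 CPM. After siMondoA, 2 of the 6 such markers tested rose and 0 fell: COL3A1 and CD68, by 0.54 and 1.06 (log2, edgeR adjusted p = 0.0263 and 0.00178). After siMLX 1 of 6 rose and 0 fell: DCN, by 2.80 (adjusted p = 0.00270), from at most 3.11 CPM in siControl. Of the 6 epithelial markers, CDH1 rose after siMondoA by 2.38 (adjusted p = 0.00215) and MUC1 fell by 0.67 (adjusted p = 0.0469), and 0 passed after siMLX. In each comparison 5 of the 6 had changes below 0, with medians of -0.42 after siMondoA and -0.34 after siMLX. In siMondoA against siMLX, CDH1 (3.58, adjusted p = 0.000913) and CD68 (0.71, adjusted p = 0.0163) were higher and DCN (-2.51, adjusted p = 0.00297) was lower. The part of these markers in the results below was not tested. In bulk libraries fewer cells and less RNA per cell cannot be told apart.

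After siMondoA, mitochondrial ribosomal protein genes moved little and in both directions. At an adjusted p under 0.05 in edgeR's quasi-likelihood test, 4 of 77 rose and 6 fell, against 27.2% of the 13001 genes tested that passed in either direction. Background shares were 14.2% for genes that rose and 12.9% for genes that fell. No member reached a 2-fold change, against 9.02% of all genes that did and passed the test. The log2 fold changes of members spanned from -0.69 to 0.56, with a median of -0.07, against 0.00 for all genes tested. Of the 77 members 43 were below 0, against 6446 of the 13001 genes. All 3 values of a group lay outside the range of the other for 30 members, 16 higher and 14 lower after siMondoA (20.8% and 18.2%), against 24.4% and 22.8% of all genes.

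MRPS16, a small subunit protein with a bacterial counterpart and a known disease gene of mitochondrial translation, showed the largest change. Its gene lies on chromosome 10 from 73248843 to 73252693 (GRCh38). MRPS16 had 61.0, 50.7 and 52.5 CPM in siMondoA against 95.5, 85.9 and 84.1 in siControl, while siMLX gave 84.7, 80.0 and 89.5. All siMondoA libraries were below all others, and siControl and siMLX overlapped. It fell by 0.69 on the log2 scale after siMondoA (SE 0.11, edgeR adjusted p = 0.00234). It was also lower in siMondoA than in siMLX (-0.63, SE 0.11, adjusted p = 0.00629). DNAJC9, which shares 20 exon bases with MRPS16 on the same strand, had a log2 change of 0.44 that missed the threshold (SE 0.17, adjusted p = 0.0711). DNAJC9-AS1, which shares 395 exon bases on the opposite strand, had 0 to 2 counts in the siRNA libraries.

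MRPS6, also a small subunit protein with a bacterial counterpart, lies on chromosome 21 from 34073224 to 34143034. MRPS6 had 59.8, 59.1 and 69.6 CPM in siMondoA and 79.2, 68.8 and 72.5 in siMLX, against 109, 107 and 83.9 in siControl. Both knockdown groups lay below every siControl library. MRPS6 fell by 0.67 after siMondoA (log2, SE 0.13, edgeR adjusted p = 0.00535). After siMLX its change was -0.44 (SE 0.13) and missed the threshold (adjusted p = 0.0568), but passed with the replicate number as a block (adjusted p = 0.0483). SLC5A3, a sodium and inositol transporter whose gene shares 273 exon bases with MRPS6 on the same strand, fell as well. SLC5A3 had 199, 165 and 247 CPM in siMondoA and 238, 186 and 196 in siMLX, against 350.3, 493 and 324 in siControl. Its log2 changes were -0.93 (SE 0.19, adjusted p = 0.00741) and -0.91 (SE 0.19, adjusted p = 0.0184). The part of reads from the shared exon in the MRPS6 values was not tested.

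The other members that fell after siMondoA were MRPL20 (log2 change -0.44), MRPS33 (-0.43), MRPL48 (-0.40) and MRPL45 (-0.37), with edgeR adjusted p-values from 0.0279 for MRPL45 to 0.0410 for MRPL20. MRPL20 binds ribosomal RNA early in assembly of the large subunit, MRPL48 and MRPS33 are found only in mitochondria, and MRPL45 lies at the tunnel exit and holds the ribosome to the inner membrane. MRPL20 had 50.1, 35.2 and 46.3 CPM in siMondoA against 61.5, 60.5 and 56.1 in siControl, and MRPS33 had 46.0, 36.8 and 40.5 against 55.1, 61.0 and 50.05. MRPL48 had 19.3, 17.2 and 16.7 CPM against 23.2, 25.3 and 21.8. In none of the 3 did the groups overlap. In siMLX the values of MRPL48 were 25.9, 26.1 and 28.3 CPM, above every siControl library. MRPL45 lay below siControl (74.9, 83.4 and 68.9 CPM) in every knockdown library, with 56.8, 60.8 and 58.2 in siMondoA and 57.3, 63.8 and 58.0 in siMLX. MRPL45 is the E-box holder printed above. It was the only one of the 6 E-box holders to pass the edgeR test after siMondoA. Which holder passed depended on the fit. In the authors' deposited table MRPL36 fell (-0.56, deposited adjusted p = 0.0183) and MRPL45 did not pass (-0.37, deposited adjusted p = 0.0914). In edgeR the median of the 6 was -0.08 against -0.02 for the 62 members without the motif. Among the 22 members with an ETS core, 0 rose and 2 fell (MRPL20 and MRPL48), and the remaining 46 promoters belonged to 4 that rose and 4 that fell.

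All 4 members that rose after siMondoA carry MRPL symbols, as do 48 of the 77 members. Of the 29 MRPS members 0 passed as risen, although the largest change among them was 0.40. MRPL18, on chromosome 6 from 159789812 to 159798436, belongs to the family that binds 5S RNA in bacteria. MRPL18 had 52.7, 59.4 and 50.9 CPM in siMondoA and 49.8, 50.1 and 51.3 in siMLX, against 40.0, 38.2 and 32.8 in siControl, so both knockdown groups lay above siControl. It rose by 0.56 after siMondoA (log2, SE 0.12, edgeR adjusted p = 0.00784) and by 0.45 after siMLX (SE 0.12, adjusted p = 0.0403). MRPL50, a protein found only in mitochondria, had 55.7, 49.9 and 47.4 CPM in siMondoA and 51.3, 54.5 and 50.6 in siMLX, against 33.1, 39.7 and 36.6 in siControl. Again no knockdown library overlapped siControl. MRPL50 rose by 0.48 (SE 0.11, adjusted p = 0.0133) and by 0.52 (SE 0.11, adjusted p = 0.0236). Both siRNA comparisons share the siControl libraries, so these values are given side by side only. MRPL39, related to threonyl-tRNA synthetase, and MRPL52 rose by 0.38 each after siMondoA (adjusted p = 0.0332 and 0.0471).

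Of the 3 divergent neighbours of MRPL18, MRPL50 and MRPL52, 1 passed the test. TCP1, a subunit of the cytosolic chaperonin whose start lies 63 bases from that of MRPL18, had log2 changes of -0.25 after siMondoA (adjusted p = 0.148) and 0.33 after siMLX (adjusted p = 0.116). ZNF189, whose start lies 259 bases from that of MRPL50, had changes of 0.05 and -0.08 (adjusted p = 0.851 and 0.830). SLC7A7, an amino acid transporter that starts 59 bases from MRPL52, rose after both siRNAs, by 0.98 (SE 0.26, adjusted p = 0.0213) and by 1.32 (SE 0.26, adjusted p = 0.0148).

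**Figure D1:**
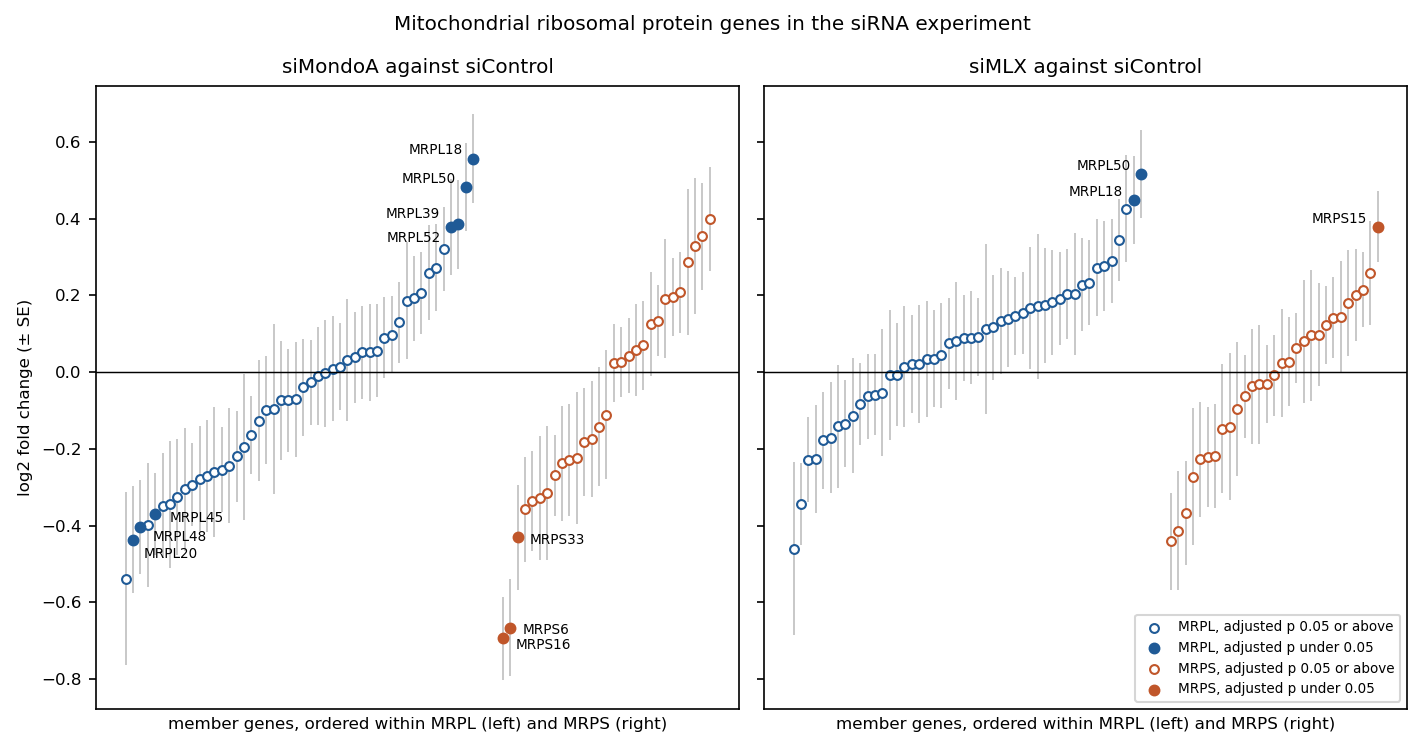
Log2 fold change (vertical axis, bars ± SE) of the 77 members after siMondoA and after siMLX against siControl, ordered within MRPL (blue) and MRPS (orange), with filled points at an adjusted p under 0.05. The 4 filled points above 0 after siMondoA are MRPL genes, as are 48 of the 77 members, and MRPS16 and MRPS6 lie lowest.

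Most calls after siMondoA were lost in some of the fits that left out 1 library. When each of the 9 libraries was left out in turn, MRPS16, MRPS6 and MRPL18 passed every time, and MRPL50 missed only without siControl replicate 1 (edgeR adjusted p = 0.0546). The other 6 passed in 2 to 5 of the 9 fits, with adjusted p-values up to 0.151, and each missed without siControl replicate 1, without siControl replicate 2 and without siMondoA replicate 3. The number that fell was 14 without siMondoA replicate 1, where 13.9% of all genes fell. It was 2 without siControl replicate 1, siControl replicate 2 or siMondoA replicate 3, where 6.95%, 6.88% and 7.13% did. The number that rose was 1 without siControl replicate 1 and 6 without siMLX replicate 2, against 7.29% and 17.4% of all genes.

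The libraries of the siMondoA group also differed among themselves. Relative to the mean of siControl, the members' median log2 level was 0.07, -0.20 and -0.09 for siMondoA, 0.13, -0.01 and 0.05 for siMLX, and 0.03, 0.03 and -0.05 for siControl, each in the order of replicates 1, 2 and 3. Of the 77 members, 32 (41.6%) had their lowest value of the 9 libraries in siMondoA replicate 2, against 21.1% of all 13001 genes. Summed epithelial markers were also lowest there, at 1161 CPM. MRPS medians were below MRPL medians in each siMondoA library, at 0.05, -0.28 and -0.12 against 0.12, -0.20 and -0.08, and in each siMLX library, at 0.04, -0.07 and 0.02 against 0.17, -0.01 and 0.09. Between subunits, the median log2 change after siMondoA was -0.06 for MRPL, with 4 risen and 3 fallen of 48, and -0.11 for MRPS, with 0 risen and 3 fallen of 29. With subunits assigned by structure the medians were -0.03 and -0.16. Members with a bacterial counterpart had a median of -0.10, with 1 risen and 3 fallen of 46, and those found only in mitochondria a median of 0.04, with 3 risen and 3 fallen of 30. In siMondoA against siMLX the order of the subunits was reversed, with medians of -0.10 for MRPL and -0.04 for MRPS. Over the fits that left out 1 library, the MRPL minus MRPS difference after siMondoA ran from -0.0020 to 0.11. These contrasts are descriptions without a test.

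**Figure D2:**
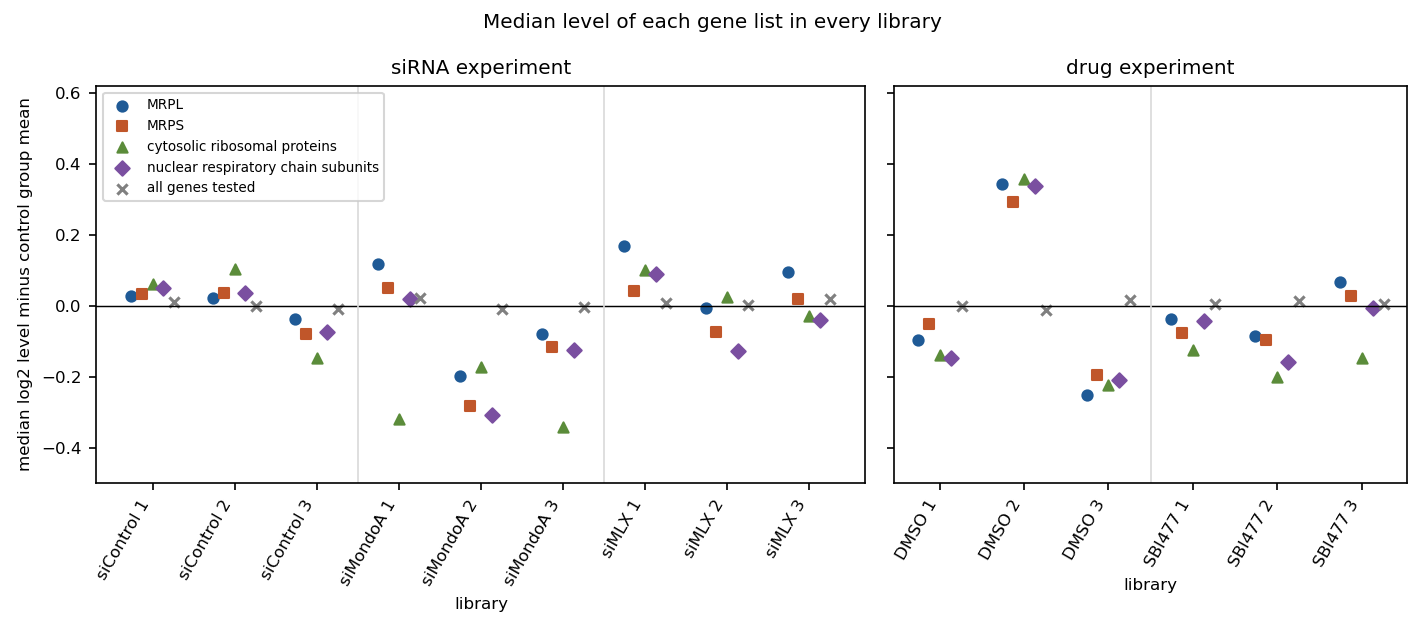
Median log2 level of each gene list in each library minus the mean of its control group (vertical axis), with libraries of both experiments along the horizontal axis. The members of both subunits are lowest in siMondoA replicate 2 among siRNA libraries, and the library labelled DMSO replicate 2 lies above the other 5 drug libraries for every ribosomal and respiratory chain list.

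After siMLX, in the fit without a replicate block, 3 of 77 members rose and 0 fell (3.90%). Of all genes, 8.41% passed (3.72% risen and 4.69% fallen). At an unadjusted p under 0.05, 7 had positive and 4 negative changes, against 13% and 12.9% of all genes, and DESeq2 called 4 that rose and 2 that fell, against 5.87% and 7.10% of all genes. The risen members were MRPL50 and MRPL18, given above, and MRPS15, a small subunit protein with a bacterial counterpart. MRPS15 had 199, 191 and 196 CPM in siMLX against 160.4, 149.7 and 141 in siControl, with no overlap, and rose by 0.38 (log2, SE 0.09, edgeR adjusted p = 0.0341). In siMondoA it was at 169, 161 and 165 CPM, and its change of 0.13 did not pass (adjusted p = 0.298). The median log2 change of members after siMLX was 0.06, at 0.09 for MRPL and -0.01 for MRPS, against 0.02 for all genes. With the replicate number as a block, since same-numbered libraries of this comparison deviated together, 4 members rose and 3 fell, against 14% of all genes in either direction, 6.52% risen and 7.44% fallen. The additions were MRPL55 (0.43, adjusted p = 0.0487) among the risen, and MRPS6, MRPL45 (-0.34, adjusted p = 0.0408) and MRPS12, a protein of the decoding site (-0.42, adjusted p = 0.0326), among the fallen. None of the 3 rises without the block held in all 9 fits that left out a library: without siControl replicate 1, 2 or 3, or siMLX replicate 3, 0 members rose, against 0.789% to 1.47% of all genes.

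Set directly against siMLX, siMondoA left 5 members lower and 2 higher of 77 (9.09%), against 12.9% of all genes (6.66% higher and 6.21% lower). The lower ones were MRPS16, MRPL48 (-0.59, edgeR adjusted p = 0.0127), MRPL20 (-0.57, adjusted p = 0.0248), MRPL44, an RNase III-like protein (-0.45, adjusted p = 0.0231), and MRPL19 (-0.42, adjusted p = 0.0408). The higher ones were MRPL49 (0.41, adjusted p = 0.0395) and MRPS10 (0.60, adjusted p = 0.0498). MRPL44 had 44.7, 41.3 and 44.5 CPM in siMondoA and 58.9, 54.8 and 64.2 in siMLX, without overlap, while siControl (57.1, 50.7 and 52.1) overlapped siMLX. MRPS10 varied within siMLX, at 35.6, 54.6 and 36.4 CPM, and ranged from 54.7 to 75.6 in siMondoA. Only MRPS16 passed in all 9 fits that left out a library, and the number lower ran from 1 without siMondoA replicate 3 or siMLX replicate 3 to 14 without siMondoA replicate 1, where 2.84%, 2.68% and 7.91% of all genes were lower. The number higher was 3 without siMLX replicate 2, against 12.6% of all genes, and 0 in 7 of the other fits, against 2.40% to 5.22%.

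Other members named for their place in the ribosome had these values after siMondoA. MRPL12, a protein of the stalk, had 146, 115 and 124 CPM in siMondoA against 107, 95.9 and 105 in siControl, all higher, and its log2 change of 0.32 just missed (SE 0.11, edgeR adjusted p = 0.0515). MRPL10 and MRPL11, which anchor the stalk that recruits translation factors, had changes of -0.10 and -0.16, and MRPL3, a core protein of the large subunit, one of -0.26. The small subunit protein MRPS22 had a change of 0.21. The 3 members whose symbols and structures differ had changes of 0.07 for MRPS36, 0.06 for MRPS30 and 0.29 for MRPS18A.

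Genes listed for the stress response of mitochondria, among them the factor ATF4, differed among libraries as well. Of 15 such genes, 8 rose and 0 fell after siMondoA, against 14.2% and 12.9% of all genes. After siMLX 0 of them passed, against 8.41% of all genes. ATF4 had 567, 835 and 626 CPM in siMondoA against 258, 320.1 and 253 in siControl (log2 change 1.29, SE 0.28, edgeR adjusted p = 0.00948). The siMLX libraries were unlike each other: ATF4 had 320.1, 695 and 336 CPM, and DDIT3, a stress factor downstream of it, had 9.81, 94.7 and 8.53, so replicate 2 lay at the siMondoA level of 68.3 to 99.8. Without siMLX replicate 2, 2 members rose and 0 fell after siMLX, against 2.59% and 3.68% of all genes. Whether these changes reflect stress of mitochondria was not tested, and neither was their part in the members' values.

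Other genes of mitochondrial translation also moved in both directions after siMondoA. The share that passed was 11.5% to 16.7% per list below, against 27.2% of all genes. Of 6 ribosomal proteins with other symbols, 1 rose: ICT1, the peptide-release factor built into the large subunit (0.58, edgeR adjusted p = 0.0187). Of 26 assembly factors, 1 rose and 2 fell. GTPBP10, a GTPase of large subunit maturation, rose by 0.61 (adjusted p = 0.0142), while TRUB2, a pseudouridine synthase (-0.76, adjusted p = 0.0168), and NOA1, a GTPase (-0.37, adjusted p = 0.0305), fell. Of 17 translation factors, TACO1, an activator of COX1 synthesis, rose by 0.48 (adjusted p = 0.0163) and MRRF, the ribosome recycling factor, fell, with a change of -0.45 (adjusted p = 0.0130). Of 17 mitochondrial tRNA synthetases, 0 rose and 2 fell, PARS2 (-0.59) and EARS2 (-0.65). Of 12 genes of mitochondrial transcription and genome maintenance, LONP1 rose (0.47) and MTERF1 fell (-0.49).

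Among 9 regulators of mitochondrial gene expression, 3 rose and 1 fell after siMondoA (44.4%, against 27.2% of all genes). NRF1 had 25.0, 31.0 and 23.8 CPM in siMondoA against 15.1, 15.4 and 14.8 in siControl and rose by 0.82 (log2, SE 0.15, edgeR adjusted p = 0.00402). GABPB1, a subunit of the ETS factor GABP, rose by 0.98 (SE 0.20, adjusted p = 0.00750), and ESRRA, an orphan nuclear receptor, by 0.54 (SE 0.09, adjusted p = 0.00313). MYC fell by 0.38 (SE 0.12, adjusted p = 0.0385). The median change of the members in the same comparison was -0.07. The part of these regulators in the members' values was not tested. After siMLX, PPARGC1A, a coactivator of mitochondrial biogenesis, fell from 7.01, 3.72 and 3.65 CPM to 0.619, 0.154 and 0.305 (log2 change -3.73, SE 0.59, adjusted p = 0.00566). The siMLX values lie near the 0.204 to 0.267 CPM that 3 counts give. PPARGC1A also had the lowest change of the 9 regulators after siMondoA, at -1.21, which did not pass.

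Cytosolic ribosomal proteins and respiratory chain subunits are the sets closest in function. Of 83 cytosolic ribosomal protein genes tested, 0 rose and 27 fell after siMondoA (32.5%), against 14.2% and 12.9% of all genes. Their median was -0.28 and 81 of 83 were below 0, against 43 of 77 members. After siMLX, 0 of the 83 passed, against 8.41% of all genes, and their median was 0.02. Whether the 2 sets differ was not tested, and reads of near-identical copies make values of cytosolic ribosomal genes uncertain. Of 52 nuclear genes for respiratory chain subunits, 2 rose and 7 fell after siMondoA (17.3%, against 27.2% of all genes), with a median of -0.12. NDUFA2, a complex I subunit, fell most among them, by 1.22 (log2, SE 0.15, edgeR adjusted p = 0.000651), followed by COX5B (-0.68) and UQCRC2 (-0.64).

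In the drug experiment as labelled, no member and no gene at all passed: 0 of 77 members and 0 of 14023 genes (background 0%) in edgeR, and DESeq2 called 0 as well. At an unadjusted p under 0.05 there were 409 genes (2.92%) and 0 members. The median log2 change of members was -0.05, at -0.04 for MRPL and -0.06 for MRPS, and the 2 groups did not overlap for 2 of 77 members (2.60%), against 9.26% of all genes. These were MRPS31, lower in SBI-477, and MRPS24, which had at most 17 counts per library there.

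In this experiment 1 library stood apart for nearly all members. The library labelled DMSO replicate 2 held the highest of the 6 values for 73 of 77 members (94.8%), 46 MRPL and 27 MRPS, against 28.0% of all genes, and DMSO replicate 3 held the lowest for 59 (76.6%, against 21.7%). The median member level relative to the DMSO mean was -0.08, 0.32 and -0.24 for the libraries labelled DMSO and -0.06, -0.09 and 0.04 for those labelled SBI-477. MRPL21 shows this range, with 71.7, 135 and 60.3 CPM under the DMSO label and 87.7, 73.9 and 89.5 under the SBI-477 label. Cytosolic ribosomal protein genes and respiratory chain subunits were high in the same library, with medians of 0.36 and 0.34, and its summed epithelial markers were the lowest of the 6 libraries, at 1076 CPM. The part of these differences in the members' values was not tested. Over the libraries labelled DMSO, the median coefficient of variation over members was 21.7%. It was 6.35% over those labelled SBI-477 and 6.95% in siControl. TXNIP placed both replicates 2 on the other group's side, so the drug values describe groups as labelled and may mix treatments.

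With both replicates 2 left out, because TXNIP placed them on the other group's side, 11 of 77 members rose and 0 fell with SBI-477 (14.3%), against 18.1% of 14232 genes, 9.07% that rose and 9.02% that fell. The median member change was 0.17, at 0.21 for MRPL and 0.12 for MRPS, against -0.01 for all genes, and 69 of 77 were above 0. MRPS11, a small subunit protein that shares its start region with MRPL46, had 53.6 and 55.5 CPM in SBI-477 replicates 1 and 3 against 37.3 and 37.2 in DMSO, and rose by 0.55 (log2, SE 0.08, edgeR adjusted p = 0.00404). MRPL12 had 146 and 184 CPM against 133 and 109.8 and rose by 0.44 (SE 0.13, adjusted p = 0.0421). The others were MRPS12 (0.48), MRPL41 (0.47), MRPL21 and MRPL55 (0.43 each), MRPS18A (0.41), MRPL15 (0.36), MRPL17 (0.34), MRPS6 (0.33) and MRPL37 (0.29). Of 83 cytosolic ribosomal protein genes, 3 rose and 2 fell in this fit with a median of 0.07, and of 52 respiratory chain subunits 8 rose and 0 fell with a median of 0.14. Of the 6 epithelial markers, 0 rose and 3 fell. Each group has 2 libraries here, and members vary together from library to library.

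The authors' deposited table gave larger changes for this comparison, with 20 members risen, 14 MRPL and 6 MRPS, and 0 fallen at an adjusted p under 0.05, against 20.1% of genes in that table that passed, 10.6% risen. In the authors' deposited table the median member change was 0.27, and 75 of 77 members were above 0. The median over all genes of that table is not given here. MRPL21 (0.61), MRPS11 (0.60), MRPL41 (0.55) and MRPS6 (0.54) had the 4 largest changes among members in the authors' deposited table. A DESeq2 fit with a replicate term differed from the authors' deposited table by a median of 0.195 in log2 change over 13086 well-expressed genes with the libraries as labelled. With the libraries labelled DMSO replicate 2 and SBI-477 replicate 2 exchanged, it differed from the authors' deposited table by 0.00446. All 11 members that rose from replicates 1 and 3 were among the 20 of the authors' deposited table, 100% of the first list and 55.0% of the second. The first list uses replicates 1 and 3 only, and both lists draw on the same experiment, so they are not independent. In the siRNA experiment the authors' deposited table held 2 members risen and 3 fallen after siMondoA (23.2% of genes passed there) and 2 and 2 after siMLX (11.7%).

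**Figure D3:**
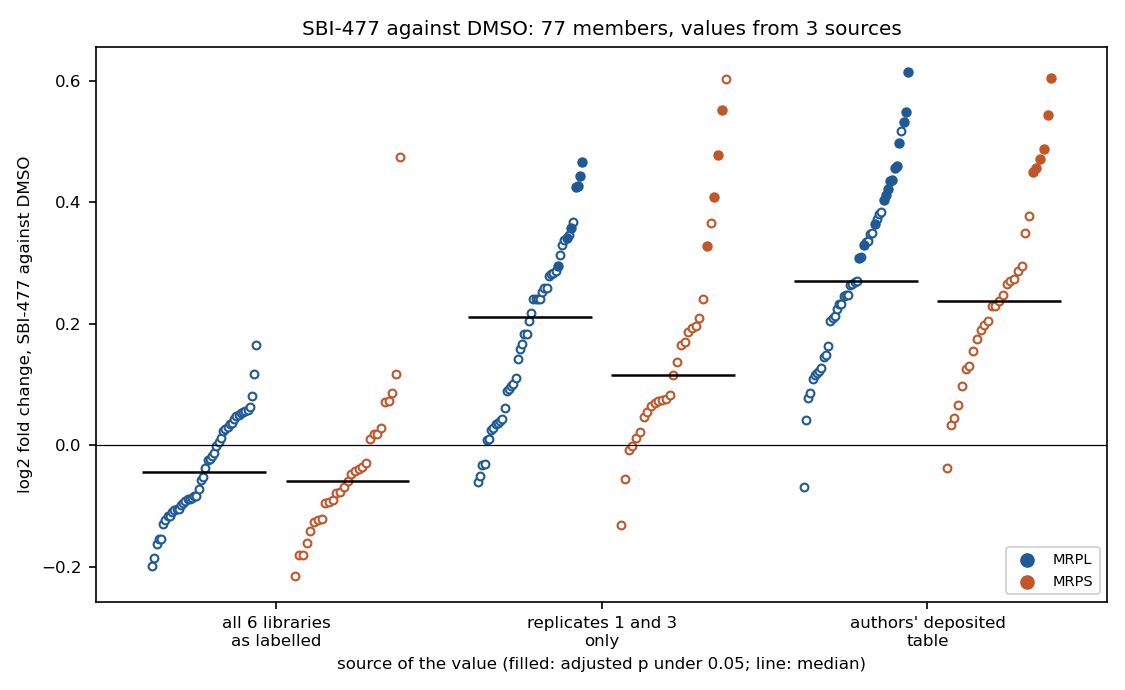
Log2 fold change of the 77 members with SBI-477 against DMSO (vertical axis) from all 6 libraries as labelled, from replicates 1 and 3, and from the authors' deposited table; blue points are MRPL, orange points MRPS, filled points have an adjusted p under 0.05 and lines are medians. The medians lie just below 0 as labelled and above 0 in the other 2 sources, where filled points all lie above 0.

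The effects of SBI-477 and siMondoA were also compared by an interaction term over all 15 libraries. A positive value means that the change with SBI-477 was the more positive one. Of 77 members, 1 passed (1.30%, against 7.67% of 13681 genes, 3.84% in the positive direction): MRPS16, at 0.73 (SE 0.16, edgeR adjusted p = 0.0186). In the drug experiment MRPS16 had 95.5, 92.0 and 98.6 CPM under the SBI-477 label and 88.6, 109 and 84.7 under the DMSO label, which overlapped. The call was lost without siControl replicate 1, siMondoA replicate 3, DMSO replicate 1 or SBI-477 replicate 3, with adjusted p up to 0.0528. Without both replicates 2 of the drug experiment, 7 members passed, all more positive with SBI-477, against 11.5% of genes in either direction and 6.02% in that one. These were MRPS6 (1.02), MRPS16 (0.88), MRPS11 (0.75), MRPL20 (0.72), MRPS33 (0.69), MRPL37 (0.66) and MRPL45 (0.55). The experiments differ in how cells were treated as well as in agent, which cannot be told apart.

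**Figure D4:**
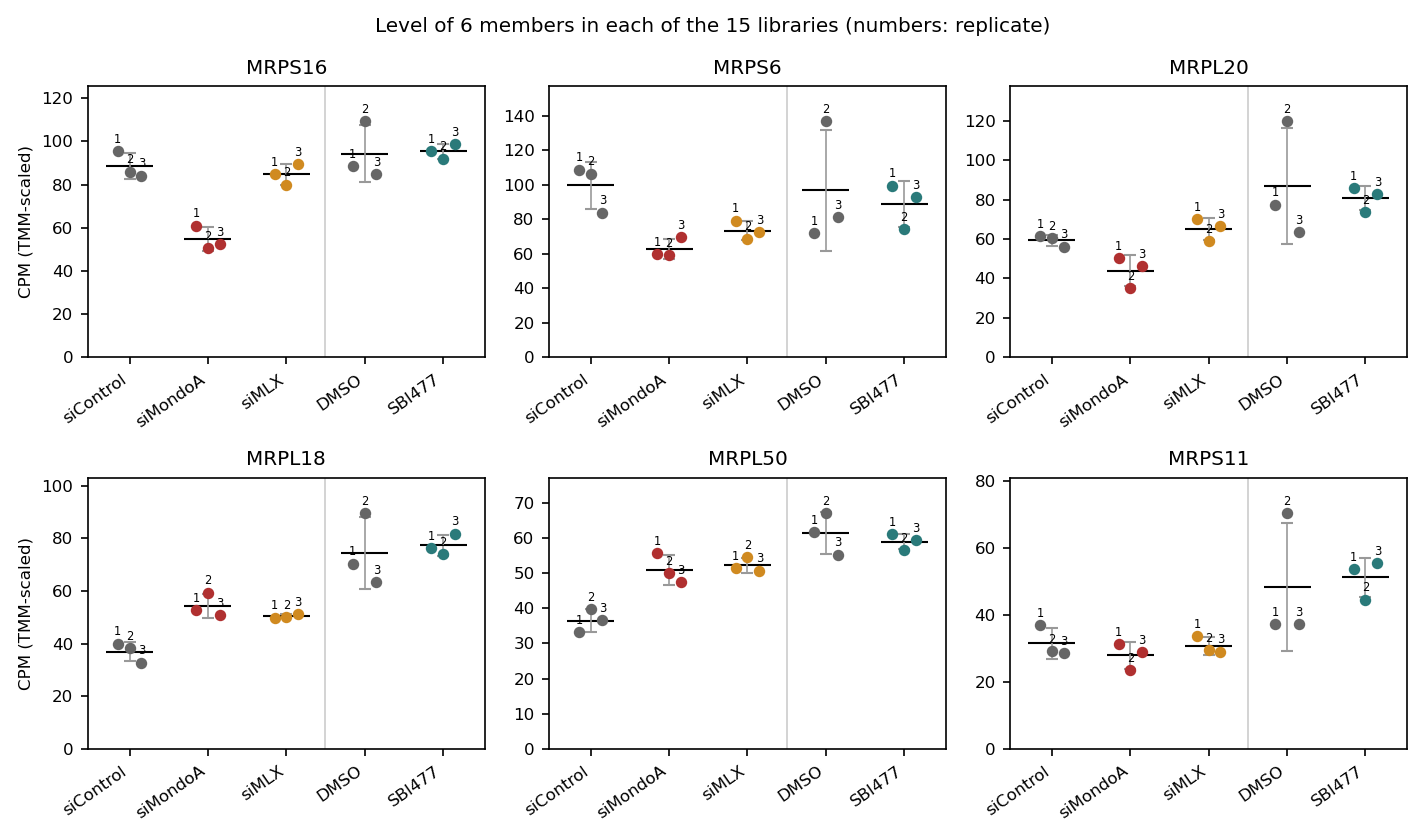
Level in CPM (vertical axis, from 0) of 6 members in each library of the 5 groups, with the replicate number above each point, the group mean as a black line and the SD as a grey bar. MRPS16 and MRPL20 are lower in siMondoA than in the other siRNA groups, MRPS6 is lower and MRPL18 and MRPL50 are higher in both knockdowns, and the library labelled DMSO replicate 2 is the highest of its experiment in each panel.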

How the data were processed

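RNA from 15 libraries of PSN-1 cells was sequenced as paired reads of 25 bases, per the labels' protocols. The submitters' processing notes name bcl2fastq 1.8.4, TopHat2 2.1.0, HTSeq 0.6.1, edgeR and the builds hg38 and mm10, without roles. The authors deposited whole-number read counts per gene symbol, which were used as given. The authors also deposited log2 fold changes and p-values per gene, per the file headers. Strand setting and the tool behind those columns are not given in the sources used here.

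Counts were tested with edgeR 4.0.16 (quasi-likelihood, filterByExpr, TMM, R 4.3.3), with 9 siRNA libraries in 1 fit, 6 drug libraries in another and 15 for the difference of effects. Adjusted p-values are Benjamini-Hochberg over all genes tested, with a threshold of 0.05. Per-library log2 levels used a prior count of 2. Alternatives were DESeq2 1.42.0, other scaling and filters, a replicate block and each library left out. The fits were also run on simulated counts with planted changes of at least 2-fold and genes drawn independently. That check does not cover the smaller changes of the members, which vary together from library to library. The main fits have no replicate block, because the labels state no pairing. For siMLX against siControl, deviations of same-numbered libraries correlated at 0.27, 0.19 and 0.36 in the data. A fit with the replicate number as a block is therefore given beside the main fit. Positions and exon lengths come from GENCODE 29 (GRCh38). A count of 3 corresponds to 0.204 to 0.267 CPM in the siRNA and 0.0984 to 0.129 CPM in the drug libraries. No libraries were duplicates.

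The members and gene lists were chosen with earlier results of these data known. Named are the members with the smallest adjusted p per comparison and symbol class, the highest and lowest by level, a set of structural members, up to 4 genes per list, the targeted genes and the genes most alike in pattern. A few neighbours and list members were named after their values were seen.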

Additional observations from a re-analysis of the deposited data

Results flagged for a closer look

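The change of MRPS16 with SBI-477 differed from its change after siMondoA by 0.73 on the log2 scale (SE 0.16, edgeR adjusted p = 0.0186), a test of the difference between the 2 effects. Its log2 change was -0.69 after siMondoA and 0.02 with SBI-477 as labelled. The difference passed in 11 of the 15 fits that left out 1 library, with edgeR adjusted p up to 0.0528. Without both replicates 2 of the drug experiment, whose labels TXNIP went against, it was 0.88 (edgeR adjusted p = 0.00633).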

How the results depend on the processing

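With the replicate block, 7 members rose and 13 fell after siMondoA (18.1% and 17.0% of all genes), 3 fell after siMLX (7.44%), and 11 were lower in siMondoA than in siMLX (9.65%). The main fits did not take replicate numbers to pair libraries. In the siMondoA comparisons, same-numbered libraries correlated at 0.14, 0.09 and 0.01 with siControl and at 0.53, 0.45 and -0.11 with siMLX. Without a filter on low counts, 2 rose after siMondoA (9.18% of all genes) and 1 after siMLX (2.55%). In that fit 1 was higher in siMondoA than in siMLX (4.76%). DESeq2 called 2 fallen after siMLX (7.10% of all genes) and 10 lower against siMLX (8.74%). It called 1 negative difference of effects (7.12% of all genes), and RLE scaling 1 such difference (4.06%). With only the 6 libraries compared, 0 were higher and 2 lower in siMondoA than in siMLX (2.8% and 2.75% of all genes). Without both drug replicates 2, 11 rose with SBI-477 (9.07% of all genes) and 7 positive differences passed (6.02%). The change of MRPS6 with SBI-477 turned from -0.12 to 0.33 there.

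Leaving out 1 library at a time gave 1 to 6 risen and 2 to 14 fallen after siMondoA, 0 to 3 and 0 to 1 after siMLX, 0 to 3 higher and 1 to 14 lower against siMLX, and 0 to 2 positive and 0 to 1 negative differences. All genes ranged in these fits from 6.35% to 17.4% risen and 6.88% to 15.5% fallen after siMondoA. After siMLX the ranges were 0.789% to 4.71% and 1.14% to 5.81%. Against siMLX they were 2.40% to 12.6% higher and 2.68% to 9.91% lower. For the difference of effects they were 1.55% to 5.49% positive and 1.44% to 6.69% negative. The MRPL minus MRPS difference of medians ran from -0.0020 to 0.11 (siMondoA), 0.013 to 0.13 (siMLX), -0.093 to 0.0040 (against siMLX), -0.012 to 0.11 (SBI-477) and -0.13 to 0.039 (difference of effects). By structure it was 0.13, against siMLX -0.028 and for the difference -0.16, and without drug replicates 2 it was 0.10 and 0.048. The cause of these shifts was not tested. The 3 libraries per group limit the precision of every value.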

Other observations

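Over the 9 siRNA libraries, the genes whose log2 levels were most like the median level of the members were KIAA1841 (Pearson r = 0.95), TOMM6, a part of the mitochondrial import pore (0.95), OST4, a subunit of the oligosaccharyltransferase (0.94), and ANO10 (0.93). These libraries share 3 treatments, and the values are a description without a test.

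MRPS24 had 13, 11 and 13 counts in the libraries labelled DMSO and 16, 13 and 17 in those labelled SBI-477, against 200 to 286 counts in the siRNA libraries, although the drug libraries are deeper. URGCP-MRPS24, which shares 606 exon bases with it on the same strand, had 0 to 2 counts in the siRNA libraries and 0 in the drug libraries. DNAJC9-AS1 had 0 to 2 counts in the siRNA libraries and 19 to 56 in the drug libraries. Why the levels differ between the experiments was not tested.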
